A study of Mus musculus with 2 samples.

Results

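The genes described here are 29 enzymes of glucose production, of sugar and inositol use, and of amino acid breakdown. They were taken as a list of symbols and matched in the gene names of the count tables of dissociated mouse kidney cortex, where all 29 were found among 31053 genes. The series holds 1 droplet single-cell library of a Pod-I-PpoI kidney cortex, which its title describes as expressing I-PpoI specifically in podocytes, and 1 library of a Wild-Type kidney cortex, both at an age of 12 weeks. The homing endonuclease I-PpoI cuts both strands of DNA, and podocytes are epithelial cells that wrap the capillaries of the glomerulus. The labels give neither the promoter that drives I-PpoI, nor the strain, nor the number of mice behind a library.

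The proximal tubule reabsorbs most of the filtered solutes and is, beside the liver, the main tissue that makes glucose. It does so mainly from lactate and glutamine. Pck1 and Pck2, the cytosolic and mitochondrial phosphoenolpyruvate carboxykinases, and Pcx, pyruvate carboxylase, open the pathway, and Fbp1, fructose-1,6-bisphosphatase, and G6pc, the catalytic subunit of glucose-6-phosphatase, end it. The same cells oxidize inositol and fructose and break down tyrosine, branched-chain, sulfur and D-amino acids, largely in mitochondria and peroxisomes.

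The promoter sequences of Pck1 and G6pc, the best known enzymes of glucose production, are shown, together with that of Agxt2. Any link between these letters and the levels below was not tested. Promoters of 27 of the 29 genes, 34 start sites in all, were found in RefSeq on build GRCm38.p6. The bases before each start were searched on both strands for CAAAGTNCA (a core of sites of the nuclear receptor HNF4), for GTTAAT followed by any base and ATT (a core of sites of HNF1) and for ACGTCA (part of the cyclic AMP response element). Capitals mark a match. The Pck1 stretch lies at chr2:173152953-173153072 on the plus strand, that of G6pc at chr11:101367466-101367715 on the plus strand, and that of Agxt2 at chr15:10358413-10358532 on the plus strand.
Pck1: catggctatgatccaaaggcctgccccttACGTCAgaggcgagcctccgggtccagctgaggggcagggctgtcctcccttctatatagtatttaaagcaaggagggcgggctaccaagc
G6pc: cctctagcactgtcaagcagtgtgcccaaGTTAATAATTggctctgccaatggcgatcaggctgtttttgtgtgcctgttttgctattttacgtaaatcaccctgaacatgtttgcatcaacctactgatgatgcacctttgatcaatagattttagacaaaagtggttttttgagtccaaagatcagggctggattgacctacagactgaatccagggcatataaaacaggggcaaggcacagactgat
Agxt2: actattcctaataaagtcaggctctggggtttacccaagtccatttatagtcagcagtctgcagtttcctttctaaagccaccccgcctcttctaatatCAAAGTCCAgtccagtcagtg
The ACGTCA match of Pck1 lies 91 bases before the start, and ACGTCA occurred in 1 of the 34 promoters, against 6.47% of all 32851 promoters of the table over the same 250 bases. The HNF1 core match of G6pc lies 221 bases before the start, and that motif occurred in 1 of the 34, against 0.371% of all. CAAAGTNCA occurred in 2 of the 34, both start sites of Agxt2, against 1.19% of all. A match describes these letters and is not evidence of binding. Variants of the letters were not searched, so a missing match is not evidence that a site is absent.

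The Pod-I-PpoI library held 37811289 UMIs (unique molecular identifiers, each counting 1 captured transcript) in 5268 barcodes, and the Wild-Type library held 27793633 in 5536. After filtering, 3949 Pod-I-PpoI cells (median 6647 UMIs, 3.31% of them mitochondrially encoded) and 3094 Wild-Type cells (median 3486.5 UMIs, 14.3%) remained. The libraries shared 6 barcode sequences, 3 of them among the cells kept. Clusters were named from marker genes, without the 29 genes or their pathway neighbours among the genes used to cluster. Proximal tubule-like cells numbered 443 in the Pod-I-PpoI library and 1350 in the Wild-Type library. A cluster of 423 Pod-I-PpoI and 17 Wild-Type cells carried markers of injured tubule. It was split after the data had been seen, and the 17 Wild-Type cells, which carried parietal epithelial markers, and 24 Pod-I-PpoI cells, led by Tagln and unnamed, were left out of the proximal tubule-like class. The remaining 399 Pod-I-PpoI cells held 1244 CPM of the injury markers (Havcr1, Vcam1 and others), against 3.76 CPM in Wild-Type proximal tubule-like cells. CPM is the UMI count of a gene per 1e6 UMIs of the cells summed. These 399 cells are called injured below. The remaining 44 Pod-I-PpoI cells resembled Wild-Type cells in their summed 23 proximal tubule markers (16310 CPM against 17470 CPM), whereas the injured cells held 5129 CPM with 1 marker at 0. No cluster could be named podocyte.

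Each group has 1 library, so no difference has a replicate check, no test between groups was made, and cells were not used as replicates. Levels are UMIs summed over the cells of a class, as CPM of that class, and ratios are those of 2 such levels. All intervals are 95% intervals that cover counting error only. A gene is called lower or higher where the ratio of the counts passed 2-fold and at least 20 UMIs stood behind it. The kit counts the 3′ ends of transcripts, so levels are not scaled by gene length and are compared between cells rather than between genes.

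In proximal tubule-like cells the 29 genes together held 4503 CPM in the Pod-I-PpoI library, against 9425 CPM in the Wild-Type library, a ratio of 0.478 (0.471 to 0.485). Among the 29, 14 were lower by 2-fold or more, read against 6.63% of the 11377 genes counted, and 1 was higher, read against 25.9%. Their median log2 ratio was -0.995, beside 0.42 for all genes counted. Most Pod-I-PpoI cells of the class were injured cells, which held 4371 CPM, a ratio of 0.464 (0.457 to 0.471) to Wild-Type. The other 44 Pod-I-PpoI cells held 9084 CPM, a ratio of 0.964 (0.913 to 1.017). Where each cell was classed by its own marker score in place of its cluster, the Pod-I-PpoI class had 153 cells, 6 of the 29 genes were lower and the median was -0.37. The share and median of all genes under that setting are not given here, so these values stand without a background.

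In the injured Pod-I-PpoI cells set against Wild-Type proximal tubule-like cells, 15 of the 29 genes were lower by 2-fold or more, read against 6.90% of the 11361 genes counted. Only Pck2 was higher, read against 26.5%. The median log2 ratio was -1.02, beside 0.43 for all genes, and with mitochondrially encoded genes, haemoglobin genes and Spp1 taken out of the totals it was -1.21, beside 0.24, and 16 genes were lower. The intervals lay below 1 for 23 genes, above 1 for 3 and included 1 for 3. Counting intervals narrow with depth, and the share of all genes with such intervals is not given here. Of the 15 lower genes, 8 stayed lower under each of 13 other settings (G6pc, Sord, Miox, Hpd, Ivd, Hibadh, Aldh6a1 and Cbs), and the least steady was Bckdha, which crossed the 2-fold limit under 5 of them.

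**Figure D1:**
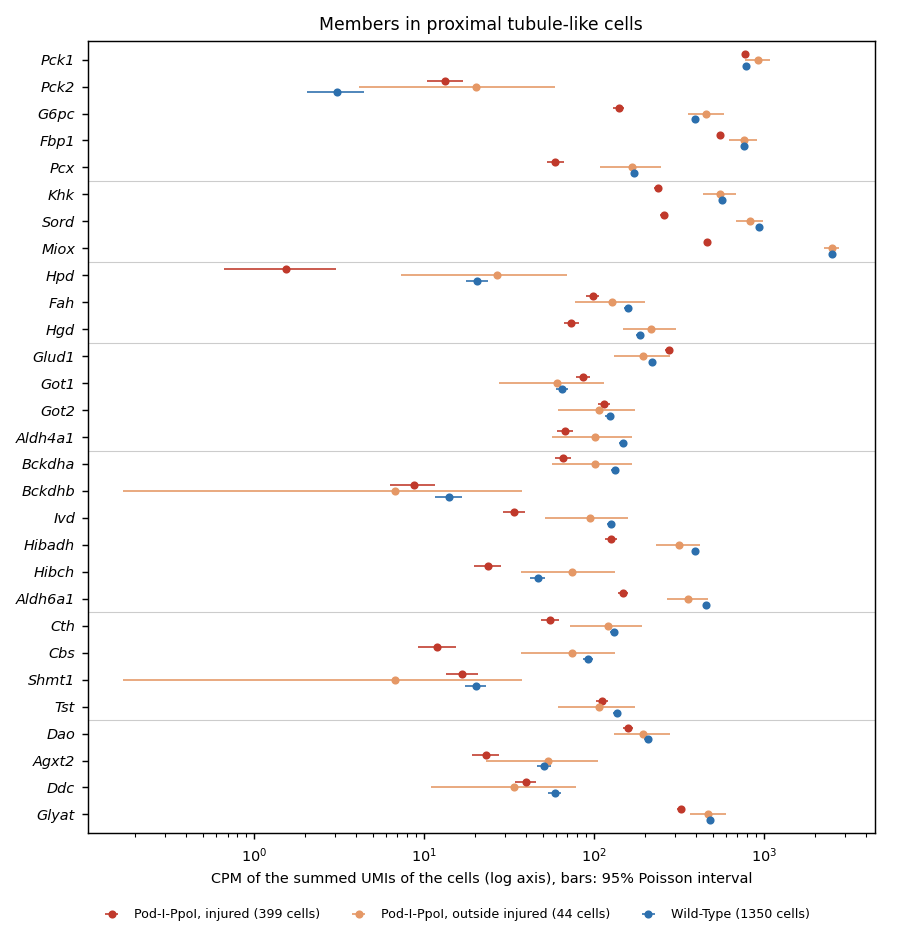
Levels of the 29 genes in proximal tubule-like cells, in CPM of the summed UMIs on a log axis, with 95% Poisson intervals as bars. Injured Pod-I-PpoI cells (399) lie left of Wild-Type cells (1350) for most genes, far left for Miox, Hpd and Cbs and to the right for Pck2, while the other Pod-I-PpoI cells (44) lie close to Wild-Type with wide bars.

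The genes of glucose production did not move as one. Pck1, the step that commits oxaloacetate to glucose, stood at 778 CPM in injured Pod-I-PpoI cells and 790 CPM in Wild-Type cells, a ratio of 0.985 (0.947 to 1.024). That ratio was 0.861 with mitochondrially encoded genes, haemoglobin genes and Spp1 left out of the totals, and the log2 ratio, -0.02 as counted, was 0.13 with classes from marker scores. G6pc, which releases free glucose in the last step, stood at 140 CPM in injured Pod-I-PpoI cells and 393 CPM in Wild-Type cells, a ratio of 0.357 (0.329 to 0.386). Pcx, which feeds pyruvate into the pathway, was also lower, at 59.3 CPM in injured Pod-I-PpoI cells against 173 CPM in Wild-Type cells. Pcx and G6pc were thus low beside a Pck1 ratio whose interval included 1. Fbp1, which removes a phosphate from fructose-1,6-bisphosphate, had an intermediate ratio of 0.717 (0.686 to 0.749). The mitochondrial isoenzyme Pck2 was counted in 69 UMIs (13.4 CPM) in injured Pod-I-PpoI cells and in 28 UMIs (3.09 CPM) in Wild-Type cells, a ratio of 4.32 (2.75 to 6.97). Its level in the injured cells was no higher than in Pod-I-PpoI macrophage-like cells (16.2 CPM) or thick ascending limb-like cells (21.6 CPM), and the part of free RNA in it was not tested. Summed over the 5 genes, the ratio was 0.725 (0.706 to 0.744).

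The 3 genes of sugar and inositol use were low in injured cells together, with a summed 959 CPM in injured Pod-I-PpoI cells against 4021 CPM in Wild-Type cells, a ratio of 0.239 (0.232 to 0.246). Miox, the kidney enzyme that opens the inositol ring to glucuronate, stood at 462 CPM in injured Pod-I-PpoI cells and 2509 CPM in Wild-Type cells, a ratio of 0.184 (0.176 to 0.192). It made up 10.6% of the UMIs of the 29 genes in injured Pod-I-PpoI cells against 26.6% in Wild-Type cells, and without it the summed ratio of the remaining genes was 0.565 (0.556 to 0.574). Sord, which turns sorbitol into fructose, stood at 259 CPM in injured Pod-I-PpoI cells and 944 CPM in Wild-Type cells. Khk, ketohexokinase, which phosphorylates fructose, stood at 239 CPM in injured Pod-I-PpoI cells and 567 CPM in Wild-Type cells. All 3 ratios lay below 1 by more than their counting error, that of Khk at 0.421 (0.395 to 0.448).

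Among the 3 enzymes of tyrosine breakdown, the ratio was lowest for the earliest. Hpd, which makes homogentisate, was counted in 8 UMIs in injured Pod-I-PpoI cells and 187 UMIs in Wild-Type cells (1.55 CPM against 20.7 CPM, ratio 0.0751, 0.0319 to 0.151). Hgd, which opens the ring of homogentisate, had a ratio of 0.397 (0.355 to 0.444). Fah, which splits fumarylacetoacetate in the last step, had 0.621 (0.560 to 0.687). In the Wild-Type library Hpd had a higher level in S3-like than in S1 and S2-like cells, on too few UMIs to be counted, as set out below. Of its 187 Wild-Type UMIs, 90 lay in 1 cluster of 406 cells whose segment could not be told apart. The 7 S3 markers, of which 1 was at 0, summed to 263 CPM in injured Pod-I-PpoI cells against 1151 CPM in Wild-Type cells. Whether fewer S3 cells among the injured cells or less Hpd per cell lie behind the Hpd ratio cannot be told apart.

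The enzymes that link glutamate and aspartate to the citric acid cycle were the group whose sum differed least, at 545 CPM in injured Pod-I-PpoI cells against 558 CPM in Wild-Type cells, a ratio of 0.977 (0.933 to 1.023). Glud1, glutamate dehydrogenase, stood at 276 CPM in injured Pod-I-PpoI cells and 221 CPM in Wild-Type cells, a ratio of 1.25 (1.17 to 1.34). Got1, the cytosolic aspartate aminotransferase, had a ratio of 1.33 (1.17 to 1.51). Both intervals lay above 1, yet both ratios stayed within 2-fold and within the shift of all genes. Got2, the mitochondrial aspartate aminotransferase, had a ratio of 0.927 (0.838 to 1.026), or 0.811 under the other totals. Aldh4a1, which ends proline breakdown, was the exception of the group, at 68.1 CPM in injured Pod-I-PpoI cells against 149 CPM in Wild-Type cells. An overlapping gene model shares exon bases with Aldh4a1 on the same strand, as it does for Hibadh and Agxt2, so the counts of these 3 genes are uncertain where reads are shared.

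All 6 genes of branched-chain amino acid breakdown had intervals below 1, and their sum was 408 CPM in injured Pod-I-PpoI cells against 1170 CPM in Wild-Type cells, a ratio of 0.349 (0.333 to 0.365). Ivd, which oxidizes the leucine product isovaleryl-CoA, had the lowest ratio of the group, at 0.270 (0.229 to 0.317). Hibadh and Aldh6a1, late steps of valine breakdown, had ratios of 0.320 (0.294 to 0.348) and 0.328 (0.303 to 0.354). These 3 downstream enzymes stood lower than the entry enzyme: Bckdha and Bckdhb, the subunits of the first component of the branched-chain ketoacid dehydrogenase, had 0.494 (0.436 to 0.557) and 0.622 (0.432 to 0.880). Hibch, between them in valine breakdown, had 0.510 (0.414 to 0.625) and passed the 2-fold limit under 6 of the 13 other settings.

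Of the 4 genes of sulfur amino acids and serine, Cbs and Cth, the successive enzymes that turn homocysteine into cysteine, were lower. Cbs stood at 12.0 CPM in injured Pod-I-PpoI cells and 92.7 CPM in Wild-Type cells, a ratio of 0.130 (0.0985 to 0.168), and Cth had a ratio of 0.420 (0.368 to 0.479). Tst, the sulfur transferase rhodanese, had 0.819 (0.741 to 0.905), and Shmt1, the cytosolic serine hydroxymethyltransferase, had 0.834 (0.639 to 1.08). In the last group, Dao, which oxidizes D-amino acids in peroxisomes, had 0.770 (0.708 to 0.836), Ddc, the decarboxylase that makes dopamine in the proximal tubule, had 0.674 (0.571 to 0.793), and Glyat, which conjugates acyl groups to glycine, had 0.669 (0.632 to 0.708). Only Agxt2, a mitochondrial aminotransferase of glyoxylate, passed the 2-fold limit in that group, at 23.3 CPM in injured Pod-I-PpoI cells against 51.2 CPM in Wild-Type cells.

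**Figure D2:**
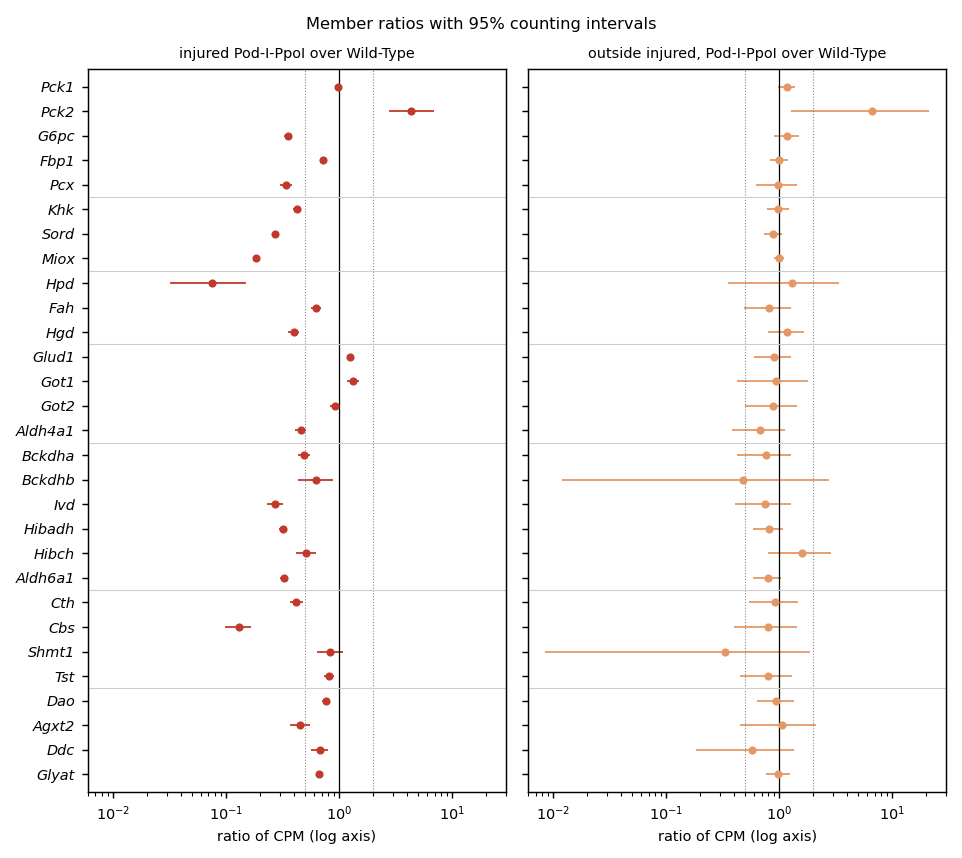
Ratios of CPM over Wild-Type proximal tubule-like cells on a log axis with 95% counting intervals, for injured Pod-I-PpoI cells on the left and other Pod-I-PpoI cells on the right, with dotted lines at 2-fold. On the left 15 genes lie below the lower dotted line and Pck2 above the upper one, and on the right 28 of 29 intervals include 1.

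The 44 Pod-I-PpoI proximal tubule-like cells outside the injured cluster gave levels near Wild-Type, with wide error. They are the cells that clustered with mostly Wild-Type cells, so a likeness to Wild-Type is partly built into their choice. Of the 29 intervals 28 included 1, and the median log2 ratio was -0.08, beside 0.14 for all genes. Miox stood at 2506 CPM in these Pod-I-PpoI cells and 2509 CPM in Wild-Type cells, a ratio of 0.999 (0.899 to 1.11). Pck1 stood at 925 CPM and G6pc at 459 CPM in these Pod-I-PpoI cells, against 790 CPM and 393 CPM in Wild-Type cells. The intervals of these 3 ratios included 1. The exception among the 7 functional groups was the branched-chain sum, at 952 CPM in these Pod-I-PpoI cells against 1170 CPM in Wild-Type cells, a ratio of 0.814 (0.684 to 0.961). Past 2-fold lay Shmt1, lower on 1 UMI against 183 (11.3% of the 9994 genes counted were lower), and Pck2, higher on 3 UMIs against 28 (14.8% were higher; ratio 6.55, 1.27 to 21.2). For the genes with few UMIs, such as Hpd with 4 and Ddc with 5 in these Pod-I-PpoI cells, differences of several-fold were not detectable at this depth. In the 1 cluster that both libraries filled, with 27 Pod-I-PpoI and 455 Wild-Type cells, 26 of 27 intervals included 1 and the median was -0.15. There 3 genes were lower (12.7% of all genes were), Hibch and Shmt1 on 0 and Got1 on 1 Pod-I-PpoI UMI, and 2 were higher (21.0% were), Fah on 7 and Cth on 6.

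Within the Pod-I-PpoI library, the injured cells could be set against the 44 other proximal tubule-like cells, which removes the difference between libraries but compares clusters drawn from the same cells. Of 28 genes counted, 13 were lower in the injured cells, read against 10.5% of 10321 genes, and none was higher, read against 27.4%. The median log2 ratio was -0.74, beside 0.35 for all genes. Miox stood at 462 CPM in injured and 2506 CPM in other Pod-I-PpoI cells, a ratio of 0.184 (0.165 to 0.206). G6pc stood at 140 CPM in injured and 459 CPM in other Pod-I-PpoI cells, a ratio of 0.305 (0.238 to 0.398). Pck1 had 0.841 (0.709 to 1.005) and Glud1 had 1.41 (0.976 to 2.11), both with intervals that include 1. With classes from each cell's marker score only 4 genes were lower, among 35 injured and 118 other cells, without the share of all genes beside it.

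Several technical measures moved with the injured cells. The ratios without mitochondrially encoded genes and Spp1 are given above, and with each cell thinned to 1000 UMIs the median log2 ratio was -0.78, beside 0.27 for all genes, with 10 of 28 genes lower. The part of free RNA and of the response to dissociation was not tested. Their median depth was 5922 UMIs, against 1188.5 in the other Pod-I-PpoI and 3378 in the Wild-Type proximal tubule-like cells. Mitochondrially encoded genes made up 9.58% of their UMIs, against 22.1% in the other Pod-I-PpoI and 25.1% in the Wild-Type cells. Spp1, osteopontin, alone made up 4.95% of injured UMIs against 0.03% in Wild-Type cells. All 6 immune transcripts used to gauge free RNA were present and summed to 836 CPM in injured Pod-I-PpoI cells against 9.28 CPM in Wild-Type cells, and 10 genes of the response to dissociation summed to 2947 CPM against 116 CPM.

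The injured cells were not uniform in these genes. Clustered again, they fell into 4 groups named proximal tubule, of 93, 182, 24 and 100 cells, a division made after the data had been seen. In the first group, the 93 cells (median 22461 UMIs, Lrp2 651 CPM, Havcr1 151 CPM), the 29 genes summed to 6793 CPM. There 7 were lower than in Wild-Type cells (5.65% of all genes were), and the median log2 ratio was -0.54, beside 0.33 for all genes. In the last group, the 100 cells (median 16512 UMIs, Lrp2 152 CPM, Havcr1 504 CPM), the 29 genes summed to 1538 CPM. Of them 22 were lower (10.3% of all genes were), and the median was -2.21, beside 0.57 for all genes. The 182 cells (median 1889 UMIs) had 4630 CPM with 13 lower (24.9%), and the remaining 24 cells had 3318 CPM with 15 lower (14.0%). Among these 4 groups, the 100 cells thus had the lowest levels, the least Lrp2 (the endocytic receptor megalin) and the most Havcr1 (the injury marker KIM-1). The order of the groups did not follow Lrp2 throughout. The group of 24 cells had the most Lrp2 (680 CPM), yet a lower sum than the 182 cells (Lrp2 397 CPM). The 24 unnamed cells left out of the class held 552 CPM of the 29 genes with Havcr1 at 0.

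Pck1 differed most plainly between these groups. It stood at 1411 CPM in the 93 cells, 1.79 times the Wild-Type level (1.71 to 1.86), and at 91.5 CPM in the 100 cells, 0.116 times (0.0998 to 0.134). In the 93 cells its log2 ratio of 0.84 was within 2-fold, beside a median of 0.33 for all genes there. The 93 cells held 86.7% of all Pck1 UMIs of the injured class and 47.8% of its UMIs, so the Pck1 ratio near 1 of the whole class is a sum of a group above Wild-Type and groups below it. Fbp1 also differed between them, at 1.24 times the Wild-Type level (1.18 to 1.30) in the 93 cells and 0.0787 times (0.0656 to 0.0938) in the 100. Its log2 ratio of 0.31 in the 93 cells lay within the shift of all genes there, a median of 0.33. G6pc and Miox were below Wild-Type in both, G6pc at 0.686 times (0.630 to 0.745) in the 93 cells and 0.0132 times (0.00658 to 0.0236) in the 100, and Miox at 0.320 times (0.306 to 0.335) in the 93 and 0.0203 times (0.0166 to 0.0245) in the 100. Hpd had 0 UMIs in the 100 cells, with an upper interval limit of 0.0850 times the Wild-Type level.

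Some genes were within 2-fold of Wild-Type even in the 100 cells. Got1 stood at 1.07 times Wild-Type there (0.884 to 1.28), Glud1 at 0.772 times (0.688 to 0.864) and Got2 at 0.728 times (0.621 to 0.849). Glyat at 0.559 times (0.512 to 0.610), Ddc at 0.519 (0.395 to 0.673) and Hibch at 0.514 (0.377 to 0.689) were just within 2-fold, with intervals below 1. The median log2 ratio of all genes there was 0.57. Glud1, Got1 and Got2 are used by many cell types, as described below, and their levels in Wild-Type cells outside the proximal tubule were of the same order. Pck2 was 6.25 times the Wild-Type level (3.77 to 10.5) in the 100 cells. In these cells the dissociation genes summed to 5524 CPM, against 1164 CPM in the 93 cells, and the part of that response was not tested.

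**Figure D3:**
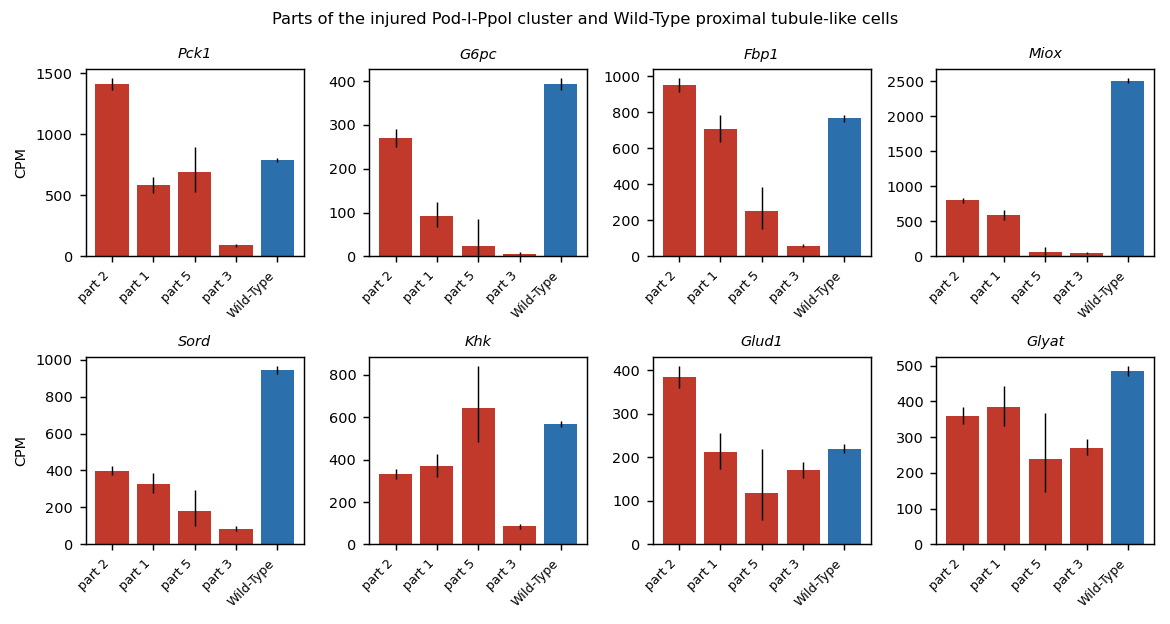
CPM of 8 of the genes in the 4 groups of injured Pod-I-PpoI cells (red; part 2 is the group of 93 cells, part 1 of 182, part 5 of 24 and part 3 of 100) and in Wild-Type proximal tubule-like cells (blue), with 95% Poisson intervals and axes from 0. Pck1 and Fbp1 exceed Wild-Type in part 2 and are far below it in part 3, whereas Miox and Sord are below Wild-Type in every part. The excess of Fbp1 in part 2 is no more than the median shift of all genes there.

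Shares of cells with a UMI, after each cell was thinned to 1000 UMIs, gave the same contrast between genes. Thinning left out 49 of the injured Pod-I-PpoI and 256 of the Wild-Type cells as too shallow. Miox was found in 26.3% of injured Pod-I-PpoI cells against 83.5% of Wild-Type cells (43.1% and 89.9% before thinning). Pck1 was found in 28.3% of injured Pod-I-PpoI cells against 43.1% of Wild-Type cells (50.4% and 71.0% before thinning), while thinned cells averaged 0.637 Pck1 UMIs in injured Pod-I-PpoI and 0.694 in Wild-Type cells. The Pck1 UMIs of the injured class thus lay in fewer of its cells. Glud1 was found in 20.3% of injured Pod-I-PpoI cells against 16.5% of Wild-Type cells. As a gauge of free RNA, Miox was found in 0 of 253 Pod-I-PpoI T cells and in 5.17% of 58 Wild-Type T cells.

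In the Pod-I-PpoI library Pck1 stood at 782 CPM in all proximal tubule-like cells and at 2.62 CPM in endothelial-like cells, the next class, and macrophage-like cells held 114 CPM of 12 proximal tubule transcripts outside the pathway. Across the cell classes of the Wild-Type library, 24 of the 29 genes were highest in a proximal tubule-like class. Any subdivision of the proximal tubule counted for this, and the share of all genes highest there was not computed. Pck1 stood at 790 CPM in Wild-Type proximal tubule-like cells and at 45.3 CPM in macrophage-like cells, the next class outside the proximal tubule, a ratio of 17.4 (12.8 to 24.3). The same ratio was 35.6 for G6pc, 18.8 for Miox, 14.2 for Fbp1 and 11.9 for Sord. Wild-Type macrophage-like cells held 3521 CPM of those 12 transcripts, 6.42% of their level in the tubule itself. The margin in Wild-Type cells over other cells was small for Hibadh (1.84), Ivd (1.54) and Hibch (1.27), which act in mitochondria and were also counted in the thick ascending limb or distal tubule.

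The 5 genes that were not highest in the Wild-Type proximal tubule were Pck2, Got1, Got2, Bckdhb and Shmt1. Got1 stood at 199 CPM in distal tubule and collecting duct-like cells and 189 CPM in thick ascending limb-like cells, neighbours within their error, against 65.0 CPM in proximal tubule-like cells. Got2 had 181 CPM and 180 CPM in those classes and 124 CPM in the proximal tubule. Bckdhb and Shmt1 were highest in thick ascending limb-like cells, at 81.8 CPM and 80.9 CPM, against 14.0 CPM and 20.2 CPM in proximal tubule-like cells, though the interval of Bckdhb there overlapped that of B cells (36.1 CPM). Pck2 was highest in mesangial, mural and renin-like cells at 51.7 CPM and next in endothelial-like cells at 25.8 CPM, both above its 3.09 CPM in proximal tubule-like cells. Of the isoenzymes, Pck1 was thus highest in the proximal tubule and Pck2 outside it in the Wild-Type library. Glud1 was broad, at 221 CPM in proximal tubule-like, 198 CPM in dendritic-like and 178 CPM in thick ascending limb-like cells, and the first of these did not differ from the second beyond counting error (ratio 1.11, 0.814 to 1.56).

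**Figure D4:**
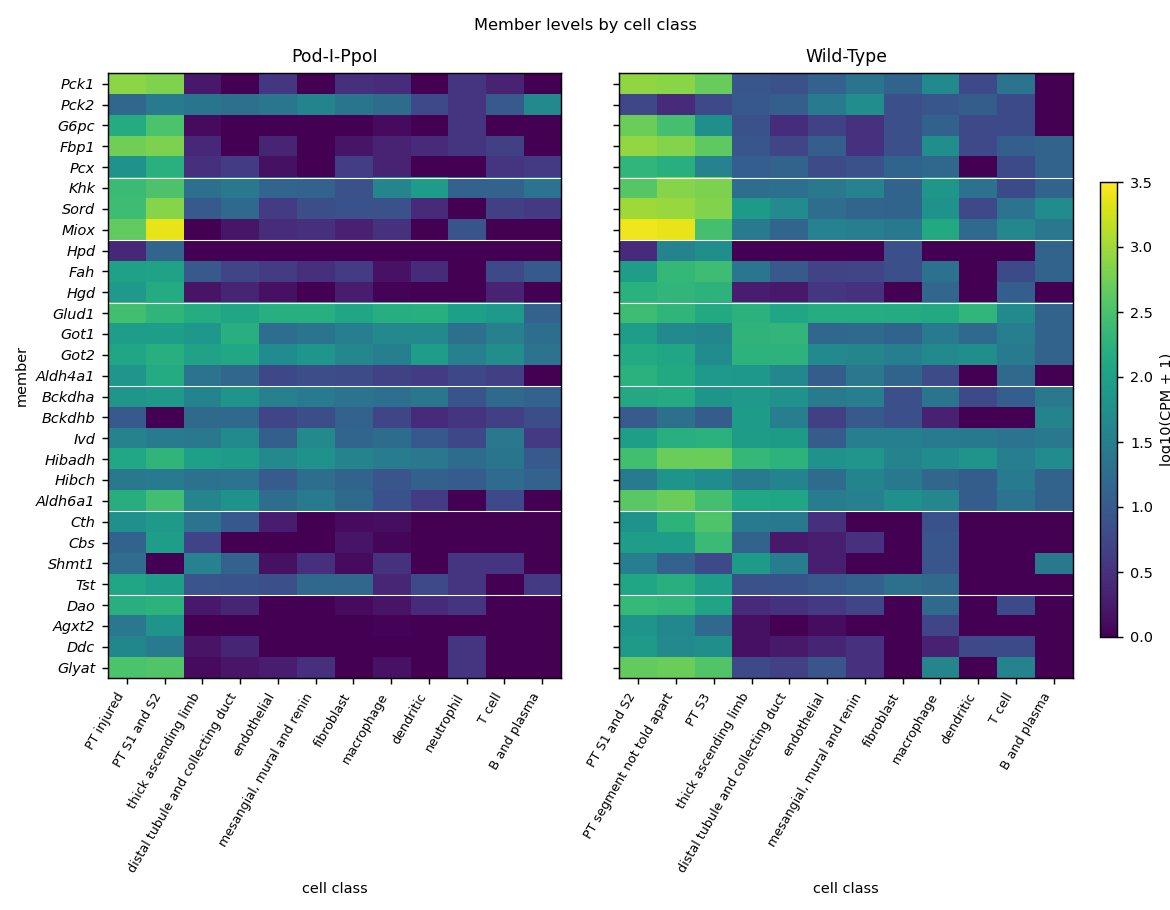
Levels of the 29 genes by cell class as log10(CPM + 1), with the Pod-I-PpoI library on the left and the Wild-Type library on the right, and white lines between the functional groups. Most genes are bright in the proximal tubule (PT) columns alone, while Glud1, Got1, Got2 and Hibadh are bright across classes.

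Along the Wild-Type proximal tubule, 43 S3-like cells were set against 601 S1 and S2-like cells, and 706 cells could not be told apart. Of 28 genes counted, 8 were lower in S3 (19.4% of 8871 genes were) and 4 higher (16.0% were), with a median log2 ratio of -0.49. G6pc stood at 54.5 CPM in S3 and 525 CPM in S1 and S2, a ratio of 0.104 (0.0518 to 0.186), and Miox at 297 CPM in S3 and 2688 CPM in S1 and S2, a ratio of 0.111 (0.0843 to 0.142). Other genes of glucose production were lower in S3 as well, with Pcx at 0.175 times (0.0700 to 0.362) and Pck1 at 0.576 times (0.466 to 0.705). Cth stood at 347 CPM in S3 and 61.7 CPM in S1 and S2, a ratio of 5.62 (4.25 to 7.35), and Cbs, Fah and Ivd were higher in S3 by ratios of 2.76, 2.80 and 2.01. Hpd had 11 UMIs in S3 and 7 in S1 and S2 (54.5 CPM against 1.69 CPM, ratio 32.2, 11.4 to 97.9), too few to be counted. The S3 class was small and its size depended on the settings, but the ratio lay below 1 in all 14 settings for Pck1, G6pc, Fbp1, Pcx, Sord, Miox, Glud1, Got1, Got2, Dao and Agxt2 and above 1 in all 14 for Khk, Fah, Ivd, Hibadh, Cth and Cbs. The size of the ratios varied. Ivd passed 2-fold under 5 of the settings (down to 1.02) and Cbs under 8 (down to 1.03), and the Miox ratio ranged up to 0.972 and that of Cth down to 1.99.

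In thick ascending limb-like cells (265 Pod-I-PpoI, 290 Wild-Type) 15 of 22 genes counted were lower in the Pod-I-PpoI library, read against 7.19% of all genes, and only Pck2 was higher, read against 18.3%. The median log2 ratio was -1.38, beside 0.28 for all genes. Bckdhb stood at 15.2 CPM in Pod-I-PpoI cells and 81.8 CPM in Wild-Type cells, a ratio of 0.186 (0.137 to 0.2502). Shmt1 stood at 35.0 CPM in Pod-I-PpoI cells and 80.9 CPM in Wild-Type cells, a ratio of 0.433 (0.345 to 0.542). Got1 stood at 72.6 CPM in Pod-I-PpoI cells and 189 CPM in Wild-Type cells, a ratio of 0.385 (0.331 to 0.448). All 3 had higher levels in this segment than in the proximal tubule in the Wild-Type library. Glud1 had 0.822 (0.724 to 0.935) and Khk 1.07 (0.719 to 1.62). Among genes typical of the proximal tubule, Miox had 0 UMIs in Pod-I-PpoI and 63 in Wild-Type cells (upper interval limit of the ratio 0.0360). The 12 proximal tubule transcripts summed to 179 CPM in Pod-I-PpoI and 558 CPM in Wild-Type cells. Mitochondrially encoded genes made up 9.47% of UMIs in Pod-I-PpoI and 26.7% in Wild-Type cells. Without them, haemoglobin genes and Spp1 in the totals, 16 genes were lower and the median was -1.64, beside 0.02 for all genes. Most of the Pod-I-PpoI cells, 219 of 265, lay in a cluster led by Lcn2, and 173 and 70 of the Wild-Type cells lay in 2 others.

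In distal tubule and collecting duct-like cells (88 Pod-I-PpoI, 225 Wild-Type) 8 of 19 genes were lower, read against 5.14%, and none was higher, read against 9.50%, with a median of -0.87. Shmt1 had a ratio of 0.382 (0.216 to 0.643), Bckdhb 0.483 (0.290 to 0.774) and Got1 0.804 (0.690 to 0.936) there. In endothelial-like cells 5 of 19 were lower (6.08% of all genes were) and none higher (5.81% were). The 5 were Pck1, Fbp1, Sord, Miox and Glyat, all at most 52 UMIs in either library but for Miox, and the 12 proximal tubule transcripts summed to 48.9 CPM in Pod-I-PpoI and 705 CPM in Wild-Type cells. In macrophage-like cells 11 of 22 were lower (12.1% were), and only Bckdhb, on 1 Wild-Type UMI, was higher (10.1% were). Those transcripts summed there to 114 CPM in Pod-I-PpoI and 3521 CPM in Wild-Type cells, and the median of -1.37 was -0.051 when cells were thinned. The part of free RNA in both classes was not tested. The broad genes Glud1 and Got1 had ratios of 1.15 (0.957 to 1.39) and 1.62 (1.08 to 2.55) in macrophage-like cells.

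The remaining classes gave few counts. In mesangial, mural and renin-like cells, where Pck2 was highest in the Wild-Type library, it stood at 36.9 CPM in Pod-I-PpoI and 51.7 CPM in Wild-Type cells, and 2 of 9 genes counted were lower (4.99% were; Khk and Hibch) and none higher (5.95% were). In T cells none of 5 genes was lower (6.22% were) or higher (10.3% were), with Glud1 at 1.68 times (0.830 to 3.83). In dendritic-like cells 1 of 5 was lower (Hibadh; 5.93% were) and 2 were higher (Khk and Got1; 11.2% were). In fibroblast-like cells 6 of 14 were lower (18.2% were) and 2 higher (13.6% were), on at most 9 UMIs each in the Wild-Type library.

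Other enzymes of the same pathways were counted over all proximal tubule-like cells, against the background of 6.63% lower and 25.9% higher given above. Of 12 other enzymes of gluconeogenesis that glycolysis shares or that lie beside it, none was lower and 1 was higher, with a median log2 ratio of -0.04. Gapdh, which glycolysis shares, had a ratio of 1.06 (1.03 to 1.10) and Slc37a4, which carries glucose-6-phosphate to G6pc, 0.543 (0.474 to 0.620). The higher one was Fbp2, the muscle fructose-1,6-bisphosphatase, at 3.92 (3.18 to 4.85). Of 10 enzymes of glycolysis alone and of lactate, 6 were higher and none lower, with a median of 1.96. Hk2, a hexokinase, had 107 UMIs in Pod-I-PpoI and 0 in Wild-Type cells, a ratio with a lower interval limit of 48.6. Pfkp, the platelet phosphofructokinase, had 50.2 CPM in Pod-I-PpoI against 2.76 CPM in Wild-Type cells, a ratio of 18.1 (12.0 to 28.6). Ldhb stood at 1805 CPM in Pod-I-PpoI and 974 CPM in Wild-Type cells, a ratio of 1.85 (1.80 to 1.91). Of these glycolysis enzymes, 6 of 10 were thus higher where G6pc and Pcx were lower. The immune transcripts given above were higher in the same class, and their part in the low-count genes was not tested.

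Of 41 other enzymes of amino acid breakdown, 21 were lower and 5 higher, with a median log2 ratio of -1.07. Acy3, an aminoacylase, had 0.100 (0.0910 to 0.110), and Ggt1, the brush border enzyme that starts glutathione breakdown, 0.231 (0.215 to 0.249). Of 18 other enzymes of branched-chain and propionate breakdown, 4 were lower and 1 higher, with a median of -0.65. Mccc1 and Mccc2, the subunits of the leucine enzyme methylcrotonyl-CoA carboxylase, had 0.276 (0.221 to 0.341) and 0.396 (0.311 to 0.499). Bcat1, the cytosolic branched-chain aminotransferase, was the higher one, at 16.6 CPM in Pod-I-PpoI against 1.22 CPM in Wild-Type cells, a ratio of 13.6 (7.27 to 28.3). Of 10 other enzymes of sugar and uronate use, 2 were lower, among them Dcxr, which reduces L-xylulose downstream of Miox, at 0.381 (0.346 to 0.420). Of 18 regulators of these pathways, 1 was lower and 3 higher. Hnf4a, a nuclear receptor of proximal tubule genes, was within 2-fold at 0.531 (0.486 to 0.579). Cebpb, a transcription factor of inflammation and glucose production, was among the higher ones, at 5.35 (4.69 to 6.11).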

How the data were processed

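Kidney cortex of 12-week-old mice was dissociated and measured with a Chromium 3′ kit, version 3.1, per the labels. The deposited matrices hold UMI counts, raw and whole, for every pairing of a gene with a cell barcode. The authors produced them with Cell Ranger against mm10, per the labels. The labels name its version 3.1 and the file headers version 6.0.2. Seurat version 3 is named as well, per the labels, and none of its output was used here.

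Cells with at least 200 genes and at most 50% mitochondrial UMIs were kept. Doublets were scored with Scrublet, whose automatic threshold marked 30 Pod-I-PpoI (0.733%) and 5 Wild-Type barcodes (0.155%), so the top 4% of scores, 142 and 123 barcodes, was left out. No correction for free RNA was made. The libraries were clustered jointly in scanpy 1.11.5 (2000 variable genes without the members and pathway genes, 30 components, 15 neighbours, Leiden resolution 1), and 2 of 30 clusters stayed unnamed. A name needed 3 markers at 25 CPM and 4-fold over the median cluster. Names are rebuilt and may differ from those of the study.

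UMIs were summed per library and class. Intervals of 95% are exact: Poisson for levels, conditional binomial for ratios and Clopper-Pearson for shares. Calls use 0.5 added counts, a 2-fold limit and 20 UMIs over both sums. Where 1 count is 0, the limit of the interval is given. The ratios and their intervals were tested on simulated Poisson counts with known changes. That test does not cover filtering, clustering, naming or variation between cells. Coordinates are those of GENCODE M21 and promoters those of RefSeq, both on GRCm38.

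The members, marker lists and 6 pathway lists (120 genes) were chosen with earlier results of these data known. The naming thresholds and the splitting of the injured cluster were set after the data were seen, and the parts of that cluster used 15 components and resolution 0.5. Of each pathway list the text may name the 3 genes with the most UMIs and the 3 with the largest change. All members are accounted for; some pathway genes are not reported here. No p-values were computed.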

Additional observations from a re-analysis of the deposited data

How the results depend on the processing

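The main comparisons were recomputed under 13 other settings, 12 of them planned and 1, leaving the injured cluster undivided, chosen after seeing the data. They were those within the proximal tubule and those between libraries in thick ascending limb, distal, macrophage and endothelial-like cells. The number of genes highest in the Wild-Type proximal tubule was recomputed as well. The pathway lists were recomputed under the other totals alone. The groups of injured cells, the sums of functional groups, the shares of cells and the remaining classes were not recomputed. Of 752 values for single genes, over all proximal tubule-like and over injured cells, 558 stayed within the counting interval of the value reported and 194 moved out of it. The log2 ratio changed sign in 15, all of genes within 2-fold, and in none of a gene called lower or higher. The median log2 ratio over all proximal tubule-like cells stayed between -0.69 (cells thinned to 1000 UMIs) and -1.19 (totals without mitochondrially encoded genes, haemoglobin genes and Spp1), except with classes from each cell's marker score, where it was -0.37 with 6 genes lower in place of 14. The same scoring left 4 in place of 13 genes lower within the Pod-I-PpoI library. Counts of lower genes under the other settings are given without the share of all genes. For the 44 other Pod-I-PpoI cells the median of -0.08 reversed to 0.19 when thinned and was -0.36 at a mitochondrial limit of 25%, -0.31 with at least 500 genes and -0.31 at resolution 2. The 1 gene lower there became 4 with equal weight per cell, 3 when thinned or scored by markers, and 0 without doublet removal, at resolution 0.5 or 2, or with the members among the variable genes. In macrophage-like cells the median of -1.37 was -0.051 when thinned, -0.12 with at least 500 genes, -0.21 without doublet removal and -0.33 with marker scores. For the other branched-chain enzymes it was -0.84 in place of -0.65 under the other totals, which put the median of all genes at 0.23 in place of 0.42. The cause was not tested in any of these. The shared cluster gave no value at the mitochondrial limit of 25%, with at least 500 genes, at resolution 2 or with marker scores, nor did the thick ascending limb with at least 500 genes. The number of genes highest in the Wild-Type proximal tubule was 24 under every setting, again without a share of all genes beside it.

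No paired analysis was possible because each group has 1 library, and for the same reason no replicate was left out. Depth limits the 44 other Pod-I-PpoI cells, where 1345 UMIs carried all 29 genes, against 22537 in injured Pod-I-PpoI and 85268 in Wild-Type proximal tubule-like cells, and it limits the shared cluster further, with 310 Pod-I-PpoI UMIs.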
